A study of Rattus norvegicus with 288 samples.

Results

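Heart was compared with kidney and liver in rats that had been given vehicles alone, on 48 of the 288 arrays of the series. The members were all arrays of the 3 tissues taken at 1 h or 6 h whose labels name D5W (5% dextrose in water, infused into a femoral vein) followed by an oral dose of sterile water or of F68/PG/PEG400 (Pluronic F68, propylene glycol and a polyethylene glycol). All rats were male Sprague-Dawley rats of 8 weeks with an implanted femoral vein cannula, and the dose of each drug was 0 mg/kg. Each combination of tissue, time and oral vehicle held 4 rats, which made 12 groups and 16 arrays per tissue, with 1 array per rat and tissue. The 3 tissues were collected from each rat, so the tissues share their rats, but the labels do not name the rat. The water rats and the F68/PG/PEG400 rats were dosed on different days, so oral vehicle and day cannot be told apart. Heart samples were cut from the apex with both ventricles, kidney samples from the left kidney, and liver samples from the left lateral and median lobes. The titles of the arrays of each tissue at these times carry a code of their own, whose meaning the labels do not give. Whatever it marks cannot be told apart from tissue.

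Heart muscle contracts when calcium released from the sarcoplasmic reticulum lets thick filaments of myosin pull on thin filaments of actin, troponin and tropomyosin, which are anchored at the Z-disc. The work is paid for by mitochondria that burn mainly fatty acids and by a creatine phosphate store, and the muscle also secretes the natriuretic peptides, hormones that lower blood volume. Kidney and liver are epithelial organs that make glucose, break down amino acids, and take up and modify drugs and solutes. Nppa (atrial natriuretic peptide) and Myl7 (the atrial regulatory myosin light chain), given as markers of the heart, are both made most strongly in the atria of the adult heart.

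The tissue labels were checked against markers. Over 9 measured heart markers the median log2 expression of an array lay between 13.1 and 13.4 on heart arrays, between 5.01 and 5.52 on kidney arrays and between 5.15 and 5.61 on liver arrays. The 9 measured kidney markers had array medians of 6.33 to 6.71 in heart against 12.7 to 13.2 in kidney, and the 10 liver markers 5.33 to 7.04 in heart against 14.6 to 14.7 in liver. Every array thus stood with its own tissue. Alb (serum albumin), a liver marker, ran from 5.39 to 11.83 over the heart arrays, and 6 of these arrays, 5 of them at 1 h, were above 8.

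Nppa was high on every heart array: its heart values were 10.68 to 12.95 with a median of 11.61, those in kidney 6.12 to 6.74 with a median of 6.41, and those in liver 6.31 to 6.69 with a median of 6.50. The groups did not overlap, and heart exceeded the mean of kidney and liver by 5.22 ± 0.10 (log2 difference ± SE, n = 16 per tissue, adjusted p = 4.46e-37). Myl7 was less even. Its heart values were 4.88 to 10.80, median 9.33, while kidney did not exceed 5.32 and liver 5.37, so the lowest heart array lay among the kidney and liver arrays. In all, 14 of the 16 heart arrays were above 6, the level required on 16 arrays for a probe set to be tested, and Myl7 therefore missed the test. Without that filter the difference was 3.71 (adjusted p = 8.81e-14).

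The comparison covered 22592 probe sets that were above log2 6 on at least 16 of the 48 arrays, and 12163 genes were each represented by the probe set of highest mean. A gene made in heart alone passes this filter through its heart arrays, so counts over tested genes describe them and are no further support. As deposited, 5709 probe sets (25.3%) were higher in heart than in the mean of kidney and liver, and 15304 (67.7%) were lower, at adjusted p under 0.05. The kidney arrays as deposited had medians of 7.34 to 7.38 against 6.63 to 6.69 in heart and 6.67 to 6.74 in liver, and the median difference over all tested probe sets was -0.43. Higher calls made up 27.2% of all calls as deposited, 50.8% after all arrays were quantile-normalized together (joint normalization), and 46.9% after each array was centred on its median. The files used here hold no detection calls, and whether low values, those of heart included, stood above background was not tested.

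A probe set was called heart-high when heart exceeded both kidney and liver by at least 1 log2 unit with adjusted p under 0.05 and also had the higher percentile rank within the array (0 to 100) against both. This left 1286 heart-high probe sets (5.69%) and 2959 heart-low ones (13.1%), the latter called by the mirrored rule. On 1879 probe sets (8.32%) all 16 heart values lay above the 32 others in log2 value and in rank, and on 3312 (14.7%) all lay below. Counted by gene, 683 of 12163 were heart-high (5.62%) and 1776 were heart-low (14.6%). All 1286 heart-high probe sets also met the log2 rule after joint normalization, when 2365 did. Of the 2959 heart-low ones 1674 did, and 1020 genes (8.39%) were heart-low both ways. Among the genes of the 40 lists examined, all 143 heart-high ones met the log2 rule both ways, and 80 of the 107 heart-low ones did. By gene 1304 (10.7%) were heart-high after joint normalization.

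**Figure D1:**
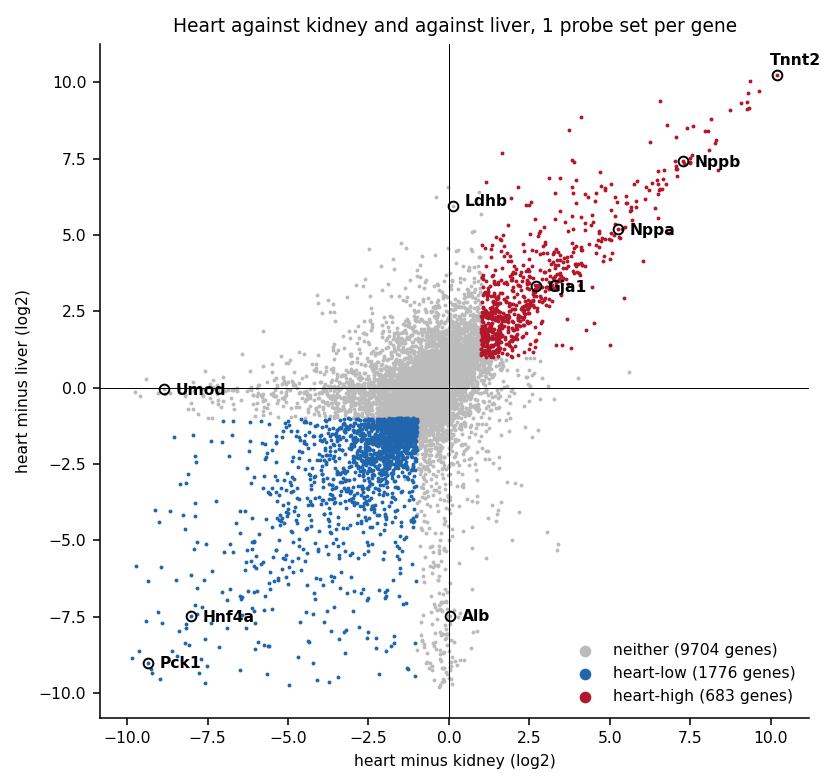
Each point is 1 gene, placed by its log2 difference between heart and kidney (horizontal) and between heart and liver (vertical), each a mean of 16 arrays against 16. The 683 heart-high genes (red) fill the upper right corner up to Tnnt2, and the 1776 heart-low genes (blue) the lower left. Kidney genes such as Umod lie along the left of the horizontal axis and liver genes such as Alb along the foot of the vertical axis.

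The contractile filament list had the largest median difference of the 40 gene lists examined. Of 20 listed genes of the thick and thin filaments 16 were tested, 15 were heart-high and 0 were heart-low. Their median difference was 7.32, against -0.47 over all genes tested. Tnnt2 (cardiac troponin T, which ties the troponin complex to tropomyosin) was at 14.39 to 14.48 with a median of 14.44 in heart, at 3.94 to 4.60 with a median of 4.24 in kidney and at 4.10 to 4.32 with a median of 4.18 in liver. The heart arrays differed among themselves by far less than they differed from the other tissues, at 10.23 ± 0.031 (adjusted p = 5.76e-67). Myh6, the fast alpha myosin heavy chain of rodent ventricles, was at 14.50 to 14.63 with a median of 14.58 in heart, 4.75 to 5.15 with a median of 4.93 in kidney and 4.68 to 5.04 with a median of 4.86 in liver, a difference of 9.68 ± 0.027. Acta1 (skeletal alpha-actin, also made in the heart) differed by 9.32, Tnni3 (cardiac troponin I, the inhibitory subunit) by 9.24, Myl2 (the ventricular regulatory light chain) by 8.92 and Myl3 (the ventricular essential light chain) by 8.17. Myom2, an M-band protein that links thick filaments, differed by 8.09, and Ttn, the titin spring that spans the sarcomere, by 7.51. Mybpc3 (cardiac myosin binding protein C) was at 13.27 in heart, 7.63 in kidney and 7.46 in liver. The exception was Myl4, the atrial essential light chain, at 6.88 in heart, 5.91 in kidney and 6.47 in liver. Actc1, the main cardiac actin, had no probe set named here. Myh6 and Myh7, and Acta1 and cardiac actin, are close relatives, and cross-hybridisation between their probes was not tested. Since these are pieces of whole tissue, fewer cells of a type and less RNA per cell cannot be told apart.

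**Figure D2:**
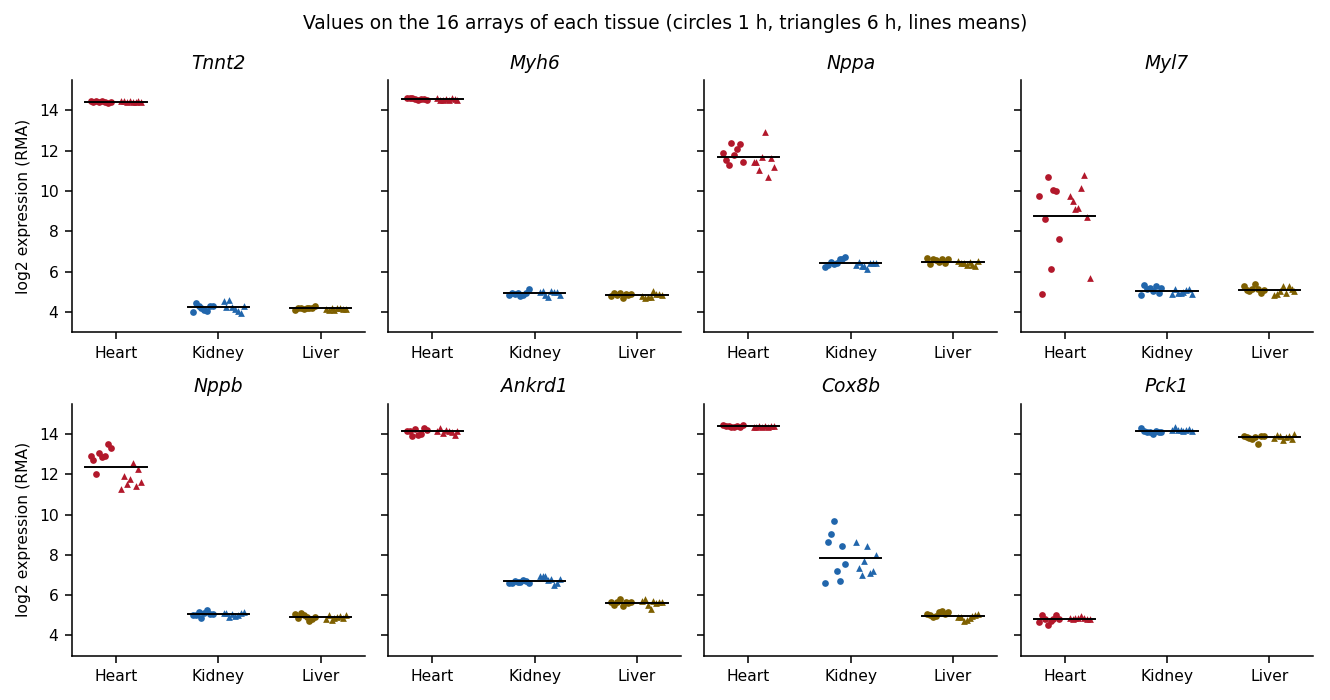
Log2 expression of 8 genes on the 16 arrays of each tissue, with circles at 1 h, triangles at 6 h and a line at the mean. Tnnt2, Myh6 and Ankrd1 are flat and high in heart, Myl7 spreads over the heart arrays from 4.88 to 10.80, Cox8b spreads in kidney, and Pck1 shows the opposite order of tissues.

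Z-disc genes followed. Of 24 listed genes 20 were tested and 20 were heart-high, with a median difference of 5.62. Myoz2 (calsarcin, which tethers calcineurin to the Z-disc) differed by 9.48 ± 0.045, Pdlim5 (a PDZ-LIM adaptor of alpha-actinin) by 8.21, Tcap (telethonin, the cap of titin) by 8.15, Csrp3 (muscle LIM protein) by 7.94 and Actn2 (sarcomeric alpha-actinin) by 7.75. The other tested probe sets of Pdlim5 were not heart-high, at -0.88 and -0.27. Ankrd1, a stretch-responsive partner of titin, was at 13.92 to 14.32 with a median of 14.14 in heart, 6.53 to 6.96 with a median of 6.70 in kidney and 5.32 to 5.83 with a median of 5.65 in liver. The heart values lay above all others by a wide margin. Cryab, a small heat shock protein that guards desmin and titin, was heart-high although kidney was close behind, at 14.35 in heart, 13.20 in kidney and 7.62 in liver. Hspb7, another small heat shock protein, had the smallest difference of the list at 1.81.

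Upstream sequences are shown for 4 heart-high genes whose expression was shared by all 16 hearts and low in both other tissues. Each runs over the 250 bases before the annotated start, 5′ to 3′ on the gene's strand, from RefSeq on the build GRCr8. Capitals mark matches to TATAAA, to the MEF2 motif (CTA, any 4 bases, TAG), to the CArG box of serum response factor, to CATTCC and to AGATAA. Both strands were searched, and a match on the opposite strand reads as its reverse complement.
Tnnt2 (chr13:49818873-49819122, plus strand): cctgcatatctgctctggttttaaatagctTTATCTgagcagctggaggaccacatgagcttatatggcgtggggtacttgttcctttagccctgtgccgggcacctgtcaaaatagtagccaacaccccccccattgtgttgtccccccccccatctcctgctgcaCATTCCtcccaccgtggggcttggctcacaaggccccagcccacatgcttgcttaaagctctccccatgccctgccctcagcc
Acta1 (chr19:68784195-68784444, minus strand): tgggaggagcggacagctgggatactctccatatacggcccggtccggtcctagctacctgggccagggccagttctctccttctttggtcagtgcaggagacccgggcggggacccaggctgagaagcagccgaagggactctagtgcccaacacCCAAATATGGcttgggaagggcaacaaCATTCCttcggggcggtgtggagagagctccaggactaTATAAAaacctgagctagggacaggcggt
Nppa (chr5:163711934-163712183, plus strand): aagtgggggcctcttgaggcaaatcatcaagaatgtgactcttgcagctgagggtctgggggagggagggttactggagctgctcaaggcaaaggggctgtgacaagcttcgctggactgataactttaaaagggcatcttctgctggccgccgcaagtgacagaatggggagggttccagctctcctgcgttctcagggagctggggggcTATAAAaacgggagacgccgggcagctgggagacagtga
Cox6a2 (chr1:192219717-192219966, minus strand): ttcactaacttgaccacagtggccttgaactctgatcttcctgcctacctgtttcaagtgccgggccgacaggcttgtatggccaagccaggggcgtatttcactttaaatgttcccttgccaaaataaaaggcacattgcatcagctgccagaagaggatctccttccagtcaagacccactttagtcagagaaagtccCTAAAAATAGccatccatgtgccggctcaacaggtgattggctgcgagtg
The Acta1 window held a CArG box 94 to 85 bases before the start, CATTCC at 67 to 62 and TATAAA at 29 to 24. Nppa held TATAAA at 39 to 34, Cox6a2 a MEF2 motif at 50 to 41, and Tnnt2 CATTCC at 83 to 78 and AGATAA on the opposite strand at 220 to 215. The windows of Mb (myoglobin) and Myl7 were searched too and are not shown. Mb, which is also high in all hearts, held TATAAA at 60 to 55, and Myl7 held none of the motifs.

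Promoters of 300 bases, with the 50 bases after the start, were found for 533 of the 683 heart-high genes, for 1507 of the 1776 heart-low genes and for 10099 of all tested genes. CATTCC, on either strand, was in 15.9% of heart-high, 12.5% of heart-low and 11.6% of all tested promoters, and in 13.9% of the 27457 promoters on record. The MEF2 motif was in 6% of heart-high, 2.92% of heart-low and 2.95% of tested promoters, and in 3.83% of all on record. TATAAA stood at 11.6%, 6.97% and 7.41%, with 14.3% of all on record, AGATAA at 9.38%, 6.1% and 6.53%, with 11.3%, and the CArG box at 2.06%, 1.46% and 1.3%, with 1.64%. Among the 26 heart-high genes of the filament and Z-disc lists with a promoter, 12 held CATTCC (46.2%), 7 AGATAA (26.9%), 6 the MEF2 motif (23.1%) and 4 each the CArG box and TATAAA (15.4%). A match is a match of letters, with no binding measured.

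Calcium handling was split. Of 22 listed genes 19 were tested, 11 were heart-high and 0 heart-low, with a median of 2.94. Ryr2, the channel that releases calcium from the sarcoplasmic reticulum, was at 12.69 to 13.27 with a median of 12.999 in heart, 4.72 to 5.18 with a median of 4.93 in kidney and 4.40 to 4.83 with a median of 4.60 in liver. Pln (phospholamban, the brake on the calcium pump) differed by 7.70 ± 0.035, Casq2 (cardiac calsequestrin, the calcium store) by 6.81, Hrc (a histidine-rich calcium binder of the same store) by 6.64 and Trdn (triadin, which couples the store to the channel) by 6.42. Cacna1c, the pore of the L-type calcium channel that triggers release, was at 9.35 in heart, 5.38 in kidney and 4.71 in liver. For each of these 6 genes all heart arrays lay above all kidney and liver arrays. Atp2a2, the calcium pump itself, depended on the probe set: the one of highest mean gave -0.60 (0.12 after joint normalization), with 11.52 in heart and 12.42 in kidney, whereas another was heart-high at 14.43 in heart, 10.92 in kidney and 10.36 in liver, a difference of 3.79. Asph differed in the same way, with -1.31 by its highest probe set and 5.77 by another, and this locus also encodes junctin, a partner of triadin. In the files 3451 genes had several tested probe sets, and 162 of these were heart-high by at least 1 and not by all. Among the heart-high genes named in this report, other probe sets were not heart-high for Cacna1c (0.70), Gata4 (0.55), Gata6 (-0.03) and Kcnj3 (1.05 and 0.23). For Pfkm and Prkar1a a further probe set was heart-high (3.51 and 1.21) and another was not (0.20 and 0.84).

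Ion channels and gap junctions had 13 of 21 tested genes heart-high and 0 heart-low, with a median of 1.85. Kcnip2, the auxiliary subunit of the transient outward potassium current, was at 12.51 to 12.97 with a median of 12.78 in heart, 5.54 to 5.86 with a median of 5.73 in kidney and 5.31 to 5.80 with a median of 5.50 in liver. Kcnj11, the pore of the ATP-sensitive potassium channel, differed by 4.86, Scn4b (a sodium channel beta subunit) by 4.33 and Gja1 (connexin 43, the gap junction protein of the ventricle) by 3.01. Kcne1, a potassium channel subunit, ran against the list at 5.22 in heart, 8.25 in kidney and 5.00 in liver. In the intercalated disc and costamere list, 12 of 19 tested genes were heart-high and 0 heart-low, led by Nexn (nexilin, an actin binder) at 5.87, Des (desmin, the muscle intermediate filament) at 5.77 and Cav3 (the muscle caveolin) at 5.12.

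Cardiac transcription factors were heart-high in 11 of 24 tested genes, with 0 heart-low and a median of 1.23. Nkx2-5, the homeobox factor of the heart field, was at 10.41 to 10.85 with a median of 10.63 in heart, 5.63 to 6.22 with a median of 5.94 in kidney and 5.37 to 5.80 with a median of 5.57 in liver. Irx4, a factor of the ventricular programme, was at 9.82 in heart, 5.18 in kidney and 4.98 in liver, and Tbx5, needed for chamber formation, at 8.08 in heart, 4.23 in kidney and 4.26 in liver. Myocd (myocardin, the coactivator of serum response factor) differed by 3.49. The GATA factors were shared to unequal degrees: Gata4 was at 9.35 in heart, 5.85 in kidney and 7.94 in liver, and Gata6 at 9.74 in heart, 5.23 in kidney and 7.63 in liver, so that liver was nearer to heart than kidney was. Hand1, Tbx3 and Heyl differed by -0.32, -0.20 and 0.30, and the first 2 turned to 0.06 and 0.18 after joint normalization, so no direction is given for them.

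**Figure D3:**
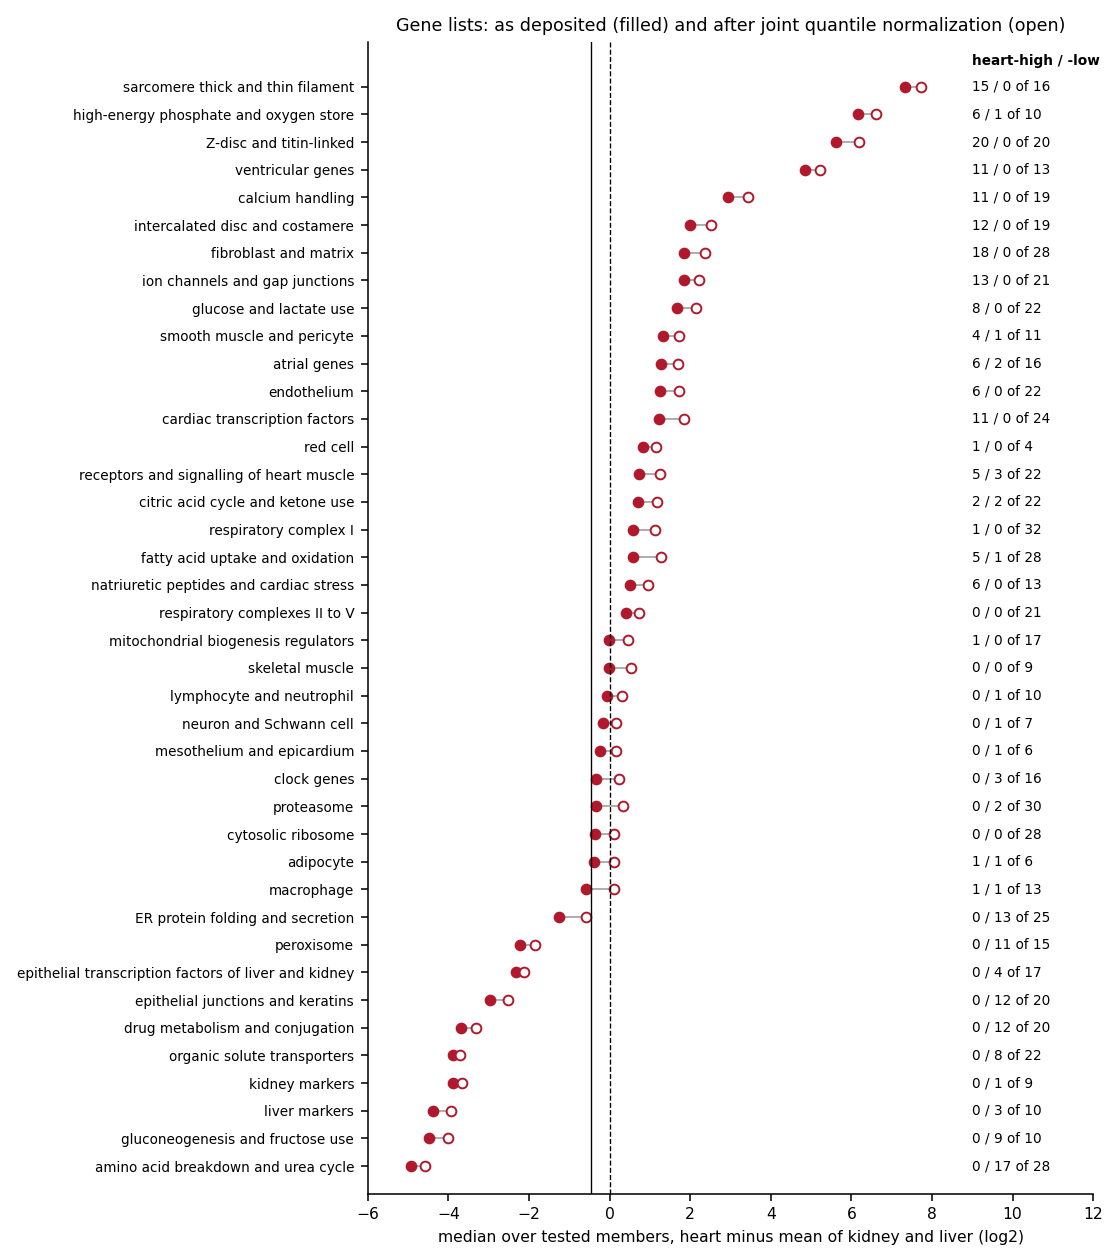
Each row is 1 gene list, placed at the median log2 difference of its tested members between heart and the mean of kidney and liver, as deposited (filled) and after joint normalization (open), with the numbers of heart-high and heart-low genes at the right. The vertical lines are the medians of all genes tested, at -0.47 as deposited (solid) and 0.01 after joint normalization (dashed). Lists of contractile genes lie far to the right, and lists of amino acid, sugar and transport genes to the left.

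The natriuretic and stress list had 6 of 13 tested genes heart-high and 0 heart-low. Nppb (B-type natriuretic peptide, a hormone of stretched ventricles) was at 11.25 to 13.50 with a median of 12.41 in heart, 4.89 to 5.26 with a median of 5.07 in kidney and 4.74 to 5.10 with a median of 4.91 in liver, a difference of 7.35 ± 0.074. Its heart values spread over more than 2 log2 units without reaching the other tissues. Myh7, the slow beta myosin heavy chain, was at 11.58 in heart, 4.50 in kidney and 4.40 in liver. Rcan1, an inhibitor of calcineurin, was at 11.70 in heart, 12.22 in kidney and 13.003 in liver, and Gdf15, a stress cytokine, at 5.10 in heart, 8.59 in kidney and 6.05 in liver. After joint normalization the difference of Rcan1 was -0.17, without an adjusted p under 0.05.

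Ventricular and atrial genes were set apart because the dissected piece was ventricular. The ventricular list had 11 of 13 tested genes heart-high, 0 heart-low and a median of 4.85. Myl2 ran from 14.72 to 14.81 over the heart arrays, at the top of the array scale with a mean percentile of 99.994, and whether the scale compressed differences there was not tested. The atrial list had 6 of 16 heart-high (9 after joint normalization), 2 heart-low and a median of 1.26. Over all genes 5.62% were heart-high (10.7% after joint normalization) and 14.6% heart-low. Sln (sarcolipin, the atrial regulator of the calcium pump) was at 5.69 to 6.99, median 6.28, in heart, and Myl4 at 6.44 to 7.62, median 6.78. Dkk3, a secreted glycoprotein, was at 10.80 in heart, 8.26 in kidney and 7.16 in liver, and Kcnj3, a subunit of the muscarinic potassium channel, at 7.97 in heart, 6.11 in kidney and 6.46 in liver. Heart-low members were Nr2f2 (the COUP-TFII factor of atrial identity) at -2.94 and Stard10 (a lipid transfer protein also rich in liver) at -4.35.

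Myl7 spanned 5.92 log2 units over the 16 hearts, against 2.27 for Nppa. At 1 h its values were 9.77, 4.88, 8.60 and 10.70 in the F68/PG/PEG400 rats and 6.14, 10.08, 10.01 and 7.62 in the water rats. At 6 h they were 9.74, 9.52, 9.09 and 9.14 and then 10.14, 10.80, 8.71 and 5.69, so low and high hearts occurred at both times. The 8 vehicle hearts of 24 h, which were left out of the main fit and of the relations below, ran from 5.51 to 12.84, median 9.15. Across the 16 hearts Myl7 was set against the 17 other atrial genes on the array. Some of these were low and nearly flat in heart, such as Itga8 at 5.12 to 5.40 and Nr2f1 at 5.08 to 5.78, and could hardly show a relation. Pearson's r lay between -0.194 and 0.308, and 0 of 17 relations had an adjusted p under 0.05 by a two-sided permutation test with 100000 resamples (0 at an unadjusted p under 0.05). The lowest adjusted p was 0.97 for Pearson's r and 0.871 for Spearman's rho. Nppa gave r = 0.263 (permutation p = 0.325, adjusted p = 0.97) and rho = 0.371 (p = 0.159, adjusted p = 0.871). Without the 2 arrays farthest from the median of Myl7, r with Nppa was 0.181, and the largest was 0.548 with Chrm2 (permutation p = 0.0367, adjusted p = 0.474). Within the 8 arrays of a time, r between Myl7 and Nppa was 0.659 at 1 h and 0.149 at 6 h, and within an oral vehicle it was 0.274 for water and 0.309 for F68/PG/PEG400.

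**Figure D4:**
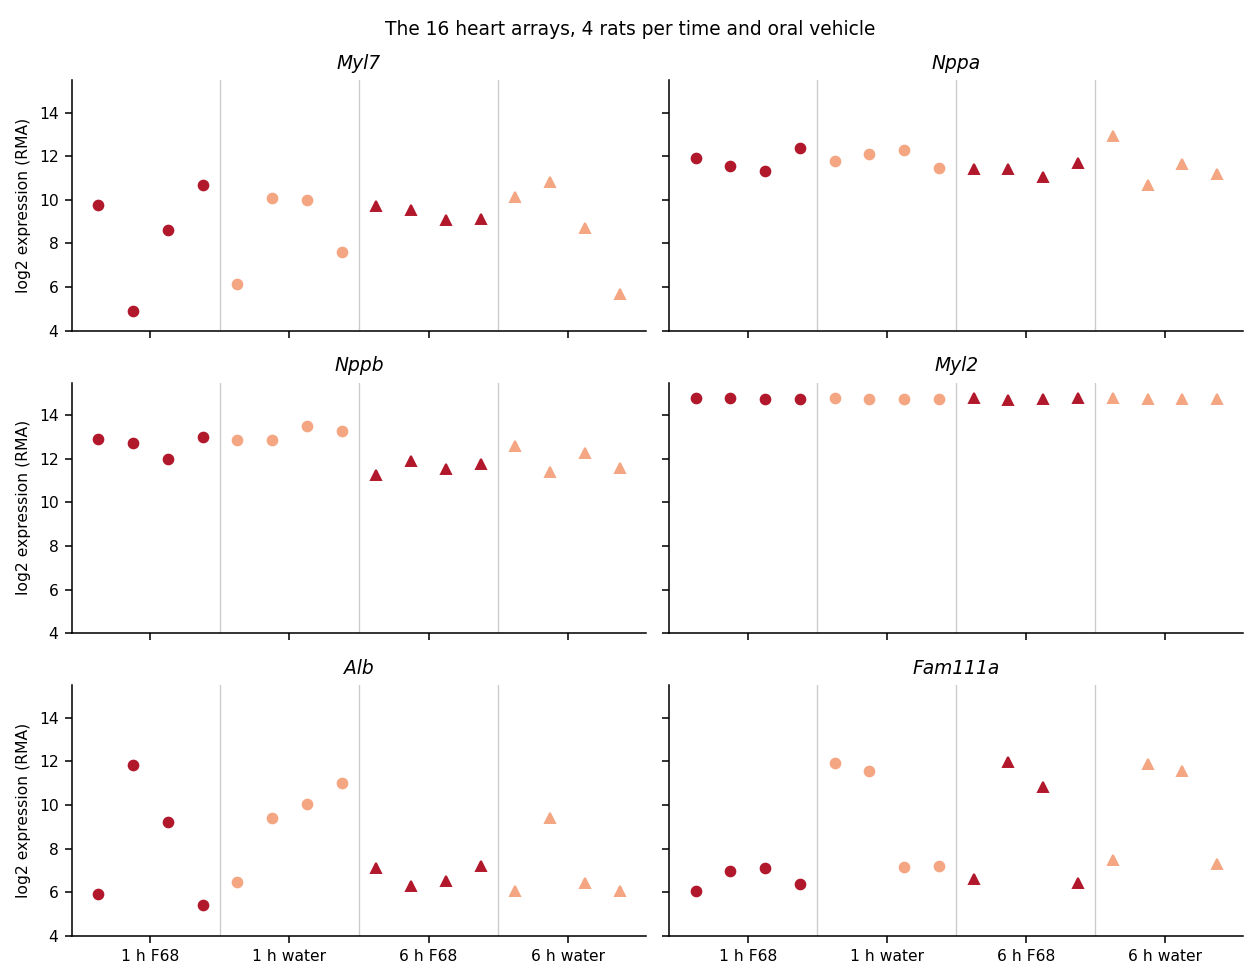
Log2 expression of 6 genes on the 16 heart arrays, 4 rats in each of 4 groups (circles 1 h, triangles 6 h, dark F68/PG/PEG400, light water). Myl7, Alb and Fam111a spread widely between rats of 1 group, Myl2 lies at the top of the scale, and Nppb lies lower at 6 h (median 11.68) than at 1 h (median 12.90).

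Stores of high-energy phosphate and oxygen were strongly cardiac. Of 14 listed genes 10 were tested, 6 were heart-high and 1 was heart-low, with a median of 6.16. Over all genes 5.62% and 14.6% were. Mb (myoglobin, the oxygen store) was at 14.54 to 14.61 with a median of 14.57 in heart, 4.90 to 6.01 with a median of 5.19 in kidney and 4.38 to 4.75 with a median of 4.54 in liver. Ckm and Ckmt2, the cytosolic and mitochondrial creatine kinases of muscle, differed by 9.20 ± 0.026 and 9.20 ± 0.044. Of the muscle forms of cytochrome oxidase subunits, Cox6a2 differed by 8.48, while Cox7a1 differed by 4.35, at 11.15 in heart, 7.06 in kidney and 6.55 in liver. Cox8b was at 14.34 to 14.45 with a median of 14.39 in heart, at 6.61 to 9.70 with a median of 7.61 in kidney and at 4.70 to 5.20 with a median of 5.00 in liver, so the kidney arrays spread over more than 3 log2 units. The steps that make creatine ran the other way: Gamt, which methylates its precursor, was heart-low at 9.02 in heart, 11.76 in kidney and 13.46 in liver, and Gatm, the step before, was at 8.67 in heart, 13.97 in kidney and 9.08 in liver.

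Fatty acid genes were heart-high in 5 of 28 tested, with 1 heart-low and a median of 0.57. Over all genes 5.62% were heart-high and 14.6% heart-low. After joint normalization 13 of the 28 were heart-high, with a median of 1.26, and in rank 24 of the 28 were higher than in both tissues, where 33.3% of all genes were. Its heart-high members included genes of uptake, and also Ucp2 (a mitochondrial carrier) at 1.91. Lpl (lipoprotein lipase, which frees fatty acids in capillaries) was at 13.65 in heart, 11.51 in kidney and 7.09 in liver, Cd36 (a fatty acid translocase) at 12.86 in heart, 9.99 in kidney and 9.94 in liver, and Fabp3 (the heart fatty acid binding protein) at 14.48 in heart, 12.84 in kidney and 6.80 in liver. Cpt1b, the muscle enzyme that admits fatty acids to mitochondria, was at 12.22 in heart, 8.76 in kidney and 6.43 in liver, while its liver form Cpt1a was heart-low at 9.68 in heart, 11.77 in kidney and 11.82 in liver. Acadm, a dehydrogenase of beta oxidation, was at 13.51 in heart, 13.78 in kidney and 13.57 in liver, with a difference of -0.16 as deposited and 0.18 after joint normalization. Glucose and lactate genes had 8 of 22 heart-high, 0 heart-low and a median of 1.67, among them Slc2a4 (the insulin-responsive glucose transporter), Pfkm (muscle phosphofructokinase) and Pygm (muscle glycogen phosphorylase) at 3.86, 4.19 and 5.66. Pfkfb1, the liver form of the enzyme that sets fructose 2,6-bisphosphate, was at 5.61 in heart, 6.11 in kidney and 11.32 in liver.

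Many steps of metabolism are run by related genes, 1 used by muscle and another by liver or most tissues. Of 30 such pairs, listed from general knowledge, both members of 22 were tested. The muscle member had the larger difference between heart and liver in 20 pairs, the larger difference between heart and kidney in 18, and both in 18. In 13 pairs the muscle member was above liver and its partner below liver, at adjusted p under 0.05. Glucose transporters were farthest apart, with Slc2a4 at 3.86 and Slc2a2 at -7.82. Glycogen phosphorylases stood at 5.66 for Pygm and -5.13 for Pygl, glycogen synthases at 2.25 for Gys1 and -3.48 for Gys2, and the aspartate-glutamate carriers at 2.19 for Slc25a12 and -1.42 for Slc25a13. For several pairs the partner was close to 0: Cox6a1 was at -0.59 beside 8.48 for Cox6a2, and Eno1 at -0.68 beside 6.31 for Eno3. The other 4 pairs were exceptions, by an assignment of the muscle member that is open for some pairs. Ldhb and Pdk2 were counted as muscle members, and counting Ldha or Pdk1 instead would change the counts for kidney. Pdk1 (2.41 against kidney) exceeded Pdk2 (-0.40), which against both tissues was at -0.01 as deposited and 0.67 after joint normalization, and Ldha (1.08 against kidney) exceeded Ldhb (0.14), a form of lactate dehydrogenase that kidney also made at 14.09 log2 while liver made 8.27. Ppargc1b exceeded Ppargc1a against kidney (0.58 and -1.05) but not against liver (0.84 and 2.24). Atp2a3 exceeded Atp2a2 against kidney (0.53 and -0.90) and liver (1.24 and -0.30), by the probe sets of highest mean.

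**Figure D5:**
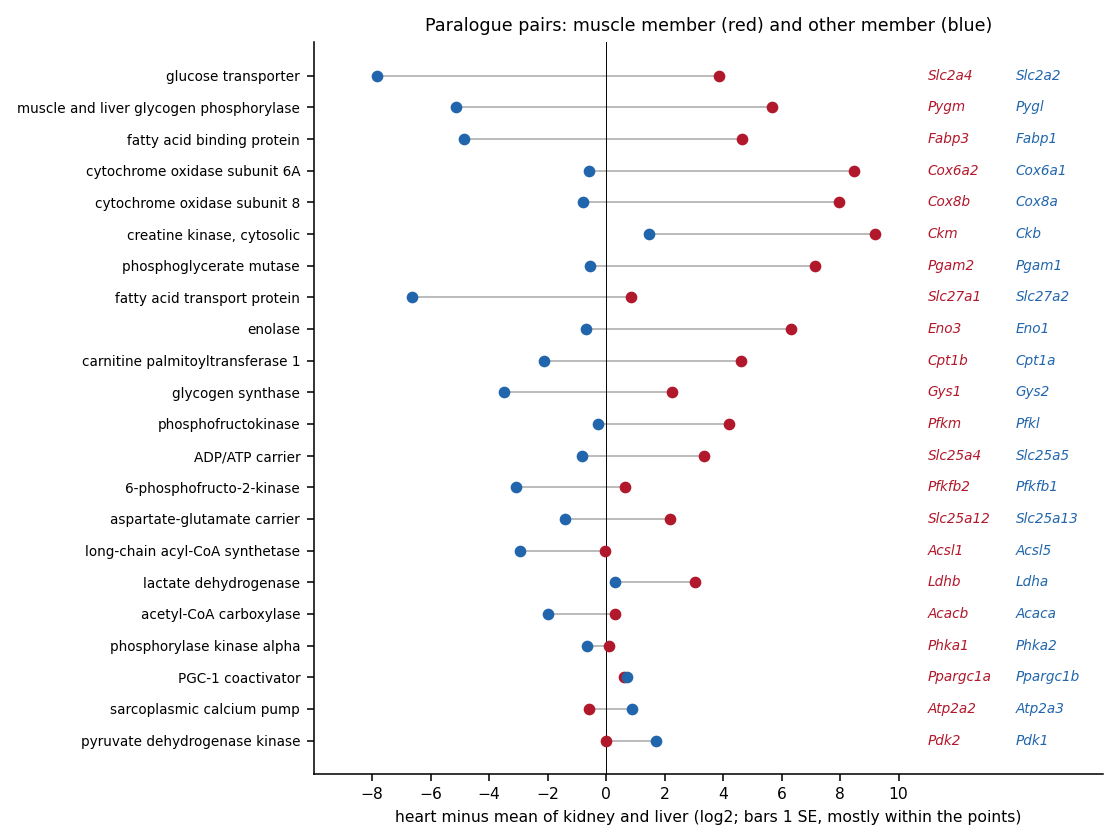
For 22 pairs of related genes, the log2 difference between heart and the mean of kidney and liver of the member assigned to muscle (red) and of its partner (blue), with bars of 1 SE that mostly lie within the points. The red point lies to the right except in the pairs of Ppargc1a, Atp2a2 and Pdk2.

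Mitochondrial genes differed by less than the contractile ones. Over all genes 5.62% were heart-high and 14.6% heart-low. Of 32 tested subunits of respiratory complex I, 1 was heart-high, Ndufa5 at 1.49, and the list median was 0.58. In rank 29 of the 32 were higher than in both tissues, where 33.3% of all genes were, and after joint normalization 13 of the 32 met the log2 rule, where 10.7% of all genes did. Ndufb8 was at 12.11 in heart, 11.32 in kidney and 10.28 in liver, and Ndufa3 at 13.05 in heart, 13.38 in kidney and 12.77 in liver, a difference of -0.02 that was 0.43 after joint normalization. Complexes II to V had 0 of 21 in either direction and a median of 0.42. In the citric acid cycle and ketone list 2 of 22 were heart-high and 2 heart-low, with a median of 0.71. The first were Slc25a12 (an aspartate-glutamate carrier) and Got1 (an aspartate aminotransferase), at 2.19 and 1.60, and the second Suclg2 (a subunit of succinyl-CoA ligase) and Slc25a13, at -1.60 and -1.42. After joint normalization 5 of the 22 were heart-high, with a median of 1.18, and neither of those 2 stayed heart-low. Cs (citrate synthase) was at 13.20 in heart, 12.24 in kidney and 9.93 in liver, and Oxct1, which lets tissues burn ketone bodies, at 13.45 in heart, 13.46 in kidney and 6.85 in liver, level with kidney and far above liver. Among 17 regulators of mitochondrial biogenesis 1 was heart-high, Perm1, a muscle regulator of energy metabolism, at 10.76 in heart, 6.00 in kidney and 5.85 in liver. Tfam, which packages mitochondrial DNA, was at 10.09 in heart, 10.54 in kidney and 10.29 in liver, a difference of -0.32 that was 0.30 after joint normalization.

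Receptors and signalling genes had 5 of 22 tested genes heart-high and 3 heart-low, or 9 and 2 after joint normalization. Over all genes 5.62% were heart-high and 14.6% heart-low, or 10.7% and 8.39%. The heart-low count is thus near the share of all genes and is no result about this list. Adcy5, a cardiac adenylyl cyclase, was at 9.07 in heart, 6.62 in kidney and 6.62 in liver, and Chrm2, the muscarinic receptor that slows the heart, at 7.84 in heart, 5.83 in kidney and 6.23 in liver. Adrb1, the main beta receptor of the heart, was at 6.98 in heart, 6.83 in kidney and 5.09 in liver, so kidney was close to it. Rgs6 (a regulator of G protein signalling), Adra1d (an alpha receptor) and Prkar1a (a regulatory subunit of protein kinase A) were also heart-high, at 2.22, 1.88 and 1.42, and Ptger3 (a prostaglandin receptor) and Ghr (the growth hormone receptor) heart-low, at -3.10 and -1.998, of which Ghr was not heart-low after joint normalization. Agtr1a, an angiotensin receptor, was heart-low at 6.15 in heart, 10.74 in kidney and 12.13 in liver.

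Of 28 fibroblast and matrix genes tested 18 were heart-high, 0 heart-low, and the median was 1.85. The log2 of the summed level of the 28 was highest in heart (15.996 to 16.3), against 14.4 to 15.2 for kidney and 15.1 to 15.3 for liver. Lum (lumican, a collagen-binding proteoglycan) was at 11.30 to 11.87 with a median of 11.62 in heart, 4.69 to 7.33 with a median of 6.08 in kidney and 4.69 to 7.09 with a median of 5.39 in liver. Mfap5, a microfibril protein, was at 11.18 in heart, 6.65 in kidney and 5.08 in liver, and Postn (periostin) at 8.96 in heart, 5.71 in kidney and 4.57 in liver. Fn1 (fibronectin, which hepatocytes secrete) was at 10.40 in heart, 11.05 in kidney and 13.95 in liver. Endothelial genes were heart-high in 6 of 22 (13 after joint normalization) and heart-low in 0, with sums of 14.8 to 15.1 for heart, 14.6 to 15.1 for kidney and 13.3 to 13.6 for liver. Fabp4, a fatty acid binding protein of capillary endothelium and fat, was at 13.03 in heart, 9.17 in kidney and 6.66 in liver, Meox2, a homeobox factor, at 8.89 in heart, 4.63 in kidney and 6.995 in liver, and Gpihbp1, which anchors lipoprotein lipase to capillaries, at 9.68 in heart, 7.32 in kidney and 6.99 in liver. Stab2, a scavenger receptor of liver sinusoids, was at 6.26 in heart, 6.36 in kidney and 10.19 in liver.

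Smooth muscle and pericyte genes had 4 of 11 heart-high (7 after joint normalization) and 1 heart-low, with sums of 14.1 to 14.3 for heart, 12.2 to 12.96 for kidney and 11.99 to 12.3 for liver, and Des, shared with heart muscle, was among them. Rgs5, a pericyte gene, was at 11.46 in heart, 8.96 in kidney and 7.26 in liver. Macrophage genes had 1 of 13 in each direction, with sums of 12.1 to 13.1 for heart, 11.9 to 12.8 for kidney and 14.5 to 15.7 for liver. F13a1 was the heart-high member at 7.68 in heart, 6.56 in kidney and 6.01 in liver. Lymphocyte and neutrophil genes had 0 of 10 heart-high and 1 heart-low (sums 10.4 to 12.2, 10.4 to 11.4 and 10.6 to 12.2). Red cell genes had 1 of 4 heart-high, Alas2 (the first step of heme synthesis in red cells) at 1.498 (14.7 to 15.0, 13.7 to 14.6 and 14.2 to 14.8), and Hbb was at 14.73 in heart, 14.16 in kidney and 14.49 in liver. Adipocyte genes had 1 of 6 heart-high, Cidea at 2.90, and 1 heart-low, Cidec at -5.28 (12.1 to 12.6, 11.4 to 13.2 and 11.7 to 12.2), while Adipoq, a defining gene of fat cells, was at 5.16 in heart, and Plin1 and Lep did not pass the filter. Of 22 skeletal muscle genes on the array only 9 passed the filter, 0 were called, and 11 were at or below 6 on every heart array (12.9 to 13.4, 12.8 to 13.4 and 12.4 to 12.9). Neuron and Schwann cell genes had 0 of 7 heart-high and 1 heart-low (10.1 to 10.9, 10.5 to 11.03 and 10.3 to 10.9), and mesothelial genes 0 of 6 and 1 (9.78 to 10.3, 10.2 to 11.1 and 9.31 to 9.67). Sums are given in the order heart, kidney and liver. Over all genes 5.62% were heart-high and 14.6% heart-low, so 1 heart-low member of a short list is no result about that list. The single heart-low members were Mylk (myosin light chain kinase) at -1.35 for smooth muscle, Adgre1 (a macrophage surface receptor) at -1.55 for macrophages, Cd4 at -1.34 for lymphocytes, Mbp (myelin basic protein) at -1.62 for Schwann cells and Krt19 (a keratin) at -2.46 for mesothelium. After joint normalization Krt19 was still heart-low, and Mylk, Adgre1, Cd4 and Mbp were not. The part of these cells in the other results was not tested.

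Lists that were low in heart belonged to epithelia and to the metabolism of liver and kidney. Gluconeogenesis and fructose use had 9 of 10 tested genes heart-low, with a median of -4.47. Pck1, the gatekeeper of glucose synthesis, was at 4.52 to 5.02 with a median of 4.83 in heart, 13.99 to 14.35 with a median of 14.15 in kidney and 13.50 to 13.99 with a median of 13.86 in liver, a difference of -9.17 ± 0.035. Fbp1 (fructose bisphosphatase) was at 6.51 in heart, 14.35 in kidney and 13.92 in liver, and Khk (ketohexokinase) at 5.88 in heart, 12.69 in kidney and 12.46 in liver. Gckr, the liver regulator of glucokinase, was not called because kidney was as low as heart, at 7.40 in heart, 7.30 in kidney and 12.27 in liver.

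Amino acid breakdown and the urea cycle had 17 of 28 genes heart-low, 0 heart-high and a median of -4.94. Ass1 (argininosuccinate synthase, used for urea in liver and for arginine in kidney) was at 5.13 to 6.01 with a median of 5.51 in heart, 13.32 to 13.95 with a median of 13.70 in kidney and 13.60 to 14.13 with a median of 13.91 in liver. Cth (cystathionine gamma-lyase), Hgd (of tyrosine breakdown) and Kmo (of tryptophan breakdown) differed by -8.25, -8.01 and -6.87. Bhmt2 (a methyltransferase of homocysteine), Agxt2 (an aminotransferase), Hoga1 (of hydroxyproline breakdown) and Upb1 (of pyrimidine breakdown) were among the 15 named heart-low genes, at -9.29, -8.52, -8.30 and -8.29. Spink1l, a symbol of the serine protease inhibitor family, had the lowest fitted difference at -9.35 ± 0.054. Its heart values were 3.65 to 3.91 with a median of 3.81, near the foot of the array at a mean percentile of 0.413.

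Drug metabolism had 12 of 20 heart-low and 0 heart-high, of which 9 were also low after joint normalization. Cyp2c23 (a P450 epoxygenase) was at 4.66 to 5.02 with a median of 4.82 in heart, 13.92 to 14.23 with a median of 14.05 in kidney and 13.90 to 14.19 with a median of 14.05 in liver. Cyp2e1 was at 7.003 in heart, 13.05 in kidney and 14.33 in liver. Ugt2b35, Cyp2d2 and Sult1b1, a glucuronosyltransferase, a P450 and a sulfotransferase, differed by -9.27, -8.55 and -8.30. Peroxisomal genes had 11 of 15 heart-low (10 also after joint normalization), led by Hao2 (a hydroxyacid oxidase) at -9.14, and Ech1, an isomerase of fatty acid oxidation, ran against the list at 12.98 in heart, 12.09 in kidney and 11.65 in liver. Solute transporters had 8 of 22 heart-low. Among those not called was Slc22a6, an organic anion transporter of the kidney, at 6.55 in heart, 12.73 in kidney and 6.61 in liver. Plasma proteins among the named genes were Apom (an apolipoprotein), Serpinc1 (antithrombin) and Spp2 (a secreted phosphoprotein), at -8.63, -8.62 and -8.62.

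Epithelial junctions and keratins had 12 of 20 heart-low, 0 heart-high and a median of -2.96. Krt8 (keratin 8) was at 4.47 to 6.14 with a median of 4.85 in heart, 10.96 to 11.46 with a median of 11.23 in kidney and 11.35 to 12.16 with a median of 11.65 in liver, and Cdh1 (E-cadherin) at 4.37 in heart, 10.43 in kidney and 11.06 in liver. The regulators of these epithelia had 4 of 17 heart-low, where 14.6% of all genes were. Hnf4a, a nuclear receptor of hepatocytes and proximal tubule, was at 4.97 to 5.37 with a median of 5.24 in heart, 12.84 to 13.31 with a median of 13.24 in kidney and 12.35 to 13.17 with a median of 12.62 in liver. Nr1h4 (the bile acid receptor), Cebpa (a factor of hepatocytes and fat) and Nr1i2 (the pregnane X receptor) differed by -5.80, -4.29 and -3.51. Factors of 1 organ were not called: Pax2, of the kidney, was at 5.64 in heart, 8.36 in kidney and 6.34 in liver, and Foxa3, of the liver, at 5.27 in heart, 5.22 in kidney and 8.94 in liver.

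Housekeeping lists lay near the shift of all genes. Of all genes tested 14.6% were heart-low as deposited and 8.39% both ways. Cytosolic ribosome genes had 0 of 28 in either direction, with a median of -0.36 as deposited and 0.10 after joint normalization. Proteasome genes had 2 of 30 heart-low and a median of -0.33, which turned to 0.32, and 0 of the 2, Psmd8 at -1.53 and Psma5 at -1.16, stayed low. Clock genes had 3 of 16 heart-low as deposited and 2 both ways (without Bhlhe40), Hlf, Rora and Bhlhe40 at -3.10, -1.60 and -1.39, with list medians of -0.33 and 0.22. In all 10 of 40 lists changed the sign of the median between both scalings, so no direction is given for them. ER protein folding and secretion kept its sign, at -1.26 and -0.59, with 13 of 25 heart-low as deposited and 2 both ways. Pdia4, a disulfide isomerase, was at 9.46 in heart, 11.31 in kidney and 13.34 in liver.

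Between 6 h and 1 h the heart difference became larger for 1756 probe sets (7.77%) and smaller for 2511 (11.1%), by a contrast over all 48 arrays. This difference is signed (heart minus the mean of kidney and liver), here and for the oral vehicle. Larger means that it moved up, and smaller that it moved down. For a gene below the other tissues, smaller thus means farther below them. By gene these were 6.06% and 15.1% of 12163. Nppb was among the 5 largest falls. Its heart values were 11.99 to 13.50, median 12.90 at 1 h and 11.25 to 12.58, median 11.68 at 6 h (n = 8 rats each). Kidney means were 5.07 and 5.05, and liver means 4.94 and 4.90. The heart difference fell by 1.08 ± 0.15 (adjusted p = 1.21e-05), and the ranges at both times overlapped. G0s2, an inhibitor of the main triglyceride lipase, was at 10.21 to 11.03, median 10.69 and then 8.64 to 9.83, median 9.41 in heart, without overlap, a change of -1.29 ± 0.21 (adjusted p = 9.46e-05).

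Ccn2 (connective tissue growth factor) was at 10.11 to 12.34, median 10.55 at 1 h and 9.41 to 10.20, median 9.89 at 6 h in heart, and its heart difference changed by -1.35 ± 0.31 (adjusted p = 0.00274). Tnfrsf12a, the receptor of the cytokine TWEAK, was at 8.90 to 11.12, median 9.46 in the hearts of 1 h and at 7.80 to 9.21, median 8.32 in those of 6 h, a change of -1.19 ± 0.22 (adjusted p = 2.57e-04). Noct (nocturnin, a clock-linked phosphatase) changed by -1.14 (adjusted p = 0.0357), with liver means of 6.39 and 7.49 and heart means of 8.56 and 8.15. Among the 5 largest rises, Car5b (a mitochondrial carbonic anhydrase) moved in heart, where it was at 5.95 to 7.16, median 6.45 at 1 h and at 6.62 to 7.76, median 7.55 at 6 h, a change of 0.80 ± 0.18 (adjusted p = 0.00171). For the other 4 the change lay mainly in kidney or liver. Chka (choline kinase) went from 9.71 to 8.09 in liver and from 7.30 to 7.36 in heart, and Slc6a6 (the taurine transporter) from 9.12 to 7.91 in liver. Akr1c1 (an aldo-keto reductase) went from 12.78 to 11.85 in kidney and from 12.06 to 10.99 in liver. Poteml2 changed by 1.23.

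Alb was not called for a change with time, at -1.37 ± 0.78 (adjusted p = 0.214). It was above 8 on 5 of 8 heart arrays at 1 h and on 1 of 8 at 6 h. With these 6 arrays left out, a choice made after the values were seen, 222 probe sets had larger and 258 smaller differences at 6 h, with heart reduced to 10 arrays. Of the 10 genes just named 4 were still called, Nppb (-1.01, adjusted p = 7.71e-05), Car5b (0.97, 0.0144), G0s2 (-1.34, 0.0166) and Chka (0.84, 0.0393). The other 6 were not, with Poteml2 at 1.21 (adjusted p = 0.24), Akr1c1 at 1.13 (adjusted p = 0.232), Slc6a6 at 0.83 (adjusted p = 0.081), Ccn2 at -0.81 (adjusted p = 0.253), Tnfrsf12a at -0.72 (adjusted p = 0.0712) and Noct at -0.92 (adjusted p = 0.381). After joint normalization Akr1c1 was not called either, at 1.04. Of the proteasome genes, 24 of 30 had a smaller difference at 6 h, against 15.1% of all genes, with a median of -0.17. In heart 29 of the 30 were lower at 6 h, by a median of 0.13, while 23 were higher in kidney and 25 in liver. After joint normalization 3 of the 30 (10%) had a smaller difference, against 6.36% of all genes, and without the 6 arrays 0 did, against 1.54% of all genes.

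Between oral vehicles the heart difference was larger with F68/PG/PEG400 for 128 probe sets (0.567%) and smaller for 108 (0.478%). These counts were not stable: leaving out 1 array in turn gave 48 to 216 larger and 60 to 234 smaller, and the vehicle rats of 24 h gave 957 and 1036. Postn was at 8.07 to 9.03, median 8.43 in the hearts of F68/PG/PEG400 rats and at 8.96 to 9.90, median 9.20 in those of water rats, while kidney means were 6.07 and 5.36. The difference changed by -1.18 ± 0.19 (adjusted p = 0.00224). Ccl2, a chemokine that draws monocytes, was in heart at 7.15 to 9.02, median 8.11 with F68/PG/PEG400 and 8.18 to 12.38, median 9.22 with water. Its kidney means were 8.61 and 7.19 and its liver means 7.335 and 6.48, so part of the change lay in those tissues. The difference changed by -2.76 ± 0.57 (adjusted p = 0.0121). Its 3 highest hearts, at 12.38, 11.30 and 9.66, were the 3 water hearts of 1 h with Alb above 8. Angptl4 (an inhibitor of lipoprotein lipase), Cxcl10 (an interferon-induced chemokine) and Ch25h (a cholesterol hydroxylase) changed by -1.72, -1.499 and -1.12. For each of them the heart mean was lower and the kidney and liver means higher with F68/PG/PEG400. Cxcl10 means with F68/PG/PEG400 and with water were 6.25 and 6.81 in heart, 8.84 and 8.31 in kidney, and 9.26 and 7.91 in liver. The larger differences, Ccdc85c at 0.52, Hltf at 0.48, Slc46a3 at 0.47, Dlgap1 at 0.42 and Rimbp2 at 0.41, were under 1 log2 unit. With the position code as a replicate block Hltf lost its call (0.48, adjusted p = 0.0513). Without the 6 arrays high in Alb, 14 and 43 probe sets were called, and of the 10 named genes 1 was, Postn (-1.20, adjusted p = 0.0106). The other 9 were not. Those with smaller differences were Ccl2 at -1.51 (adjusted p = 0.438), Angptl4 at -1.11 (adjusted p = 0.3), Cxcl10 at -1.55 (adjusted p = 0.271) and Ch25h at -0.48 (adjusted p = 0.617). Those with larger ones were Ccdc85c at 0.47 (adjusted p = 0.249), Hltf at 0.45 (adjusted p = 0.309), Slc46a3 at 0.37 (adjusted p = 0.158), Dlgap1 at 0.43 (adjusted p = 0.271) and Rimbp2 at 0.29 (adjusted p = 0.477). In the vehicle rats of 24 h Postn was at -0.44 (adjusted p = 0.754), 0 of the 10 were called, and Ccl2, Angptl4, Cxcl10, Dlgap1 and Rimbp2 had the opposite sign.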

How the data were processed

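RNA was hybridised to Affymetrix Rat Genome 230 2.0 arrays. The deposited values were log2 expression per probe set, made by the authors with RMA (background correction, quantile normalization, median polish). The RMA version, and which arrays were normalized together, were not given in the sources used here.

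The 48 arrays were grouped by label into 12 means (tissue, time and oral vehicle) and fitted with limma 3.58.1 in R 4.3.3. This main fit treated arrays of the same rat as independent. Contrasts set heart against kidney, liver and the mean of both, and compared that difference between times and oral vehicles. P-values are moderated, two-sided and adjusted by Benjamini-Hochberg over the 22592 probe sets above log2 6 on at least 16 arrays. The percentile rank within each array was fitted in the same way. Of 31099 probe sets 57 were controls, 20826 had 1 symbol, 436 several and 9780 none. Named genes are Nppa and Myl7, the 20 largest heart-high and 15 lowest heart-low genes, 2 to 4 members of each list or members that go against it, the 5 largest changes each way by time and by oral vehicle, and the 10 genes most variable between hearts. Some further list members were named for their role after their values were seen. Members and lists were chosen with earlier results of these data known. The fitting code was tested on simulated data. Alternatives included other filters, scalings, array weights, a replicate block and leaving out each array. The number of arrays limits the precision.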

Additional observations from a re-analysis of the deposited data

Results flagged for a closer look

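Single arrays stood far from the other 3 of their group for 16 of 188 groups of 4 hearts examined. The measure was the gap to the next array against the group's range, and chance alone marks about 1 in 20. The genes examined include the 10 named for the largest spread over these same hearts. The 16 of 188 can therefore not be read as more than chance would mark. Among contractile and calcium genes these were Ckm at 14.07 (6 h water replicate 3), Myl2 at 14.81 (6 h water replicate 1), Ryr2 at 12.69 (1 h water replicate 4) and at 13.14 (6 h water replicate 2), and Pln at 14.03 (6 h F68/PG/PEG400 replicate 1). Ckm lay at 14.13 to 14.14 on the other 3 arrays, so the gap was small in size. Among heart-low genes they were Bhmt2 at 3.99 (1 h water replicate 2), Cyp2c23 at 5.02 (1 h F68/PG/PEG400 replicate 2), Apom at 5.20 and Upb1 at 4.49 (6 h F68/PG/PEG400 replicate 1) and Cyp2d2 at 4.96 (6 h water replicate 1). Among the genes most variable between hearts they were Alb at 9.42 (6 h water replicate 2, others 6.04 to 6.43), Rup2 at 5.22 (6 h F68/PG/PEG400 replicate 3), Cd3g at 10.53 (1 h water replicate 1, others 6.74 to 7.23) and Sv2b at 9.79, 10.19 and 9.45 (replicate 2 of 1 h and of 6 h F68/PG/PEG400, and 6 h water replicate 4).

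The heart difference changed between 1 h and 6 h, by the contrast over all arrays, for Poteml2 (1.23), Akr1c1 (1.08), Chka (0.90), Car5b (0.80), Slc6a6 (0.75), Ccn2 (-1.35), G0s2 (-1.29), Tnfrsf12a (-1.19), Noct (-1.14) and Nppb (-1.08). Of the 35 genes named for their tissue difference, Sult1b1 (0.41), Tcap (0.32), Hao2 (0.31), Apom (0.21) and Spp2 (0.20) also changed with time. Over all genes tested 2569 of 12163 did, with 6.06% larger and 15.1% smaller, so this is not read as a trait of the named genes. Between oral vehicles it changed for Ccdc85c (0.52), Hltf (0.48), Slc46a3 (0.47), Dlgap1 (0.42), Rimbp2 (0.41), Ccl2 (-2.76), Angptl4 (-1.72), Cxcl10 (-1.499), Postn (-1.18) and Ch25h (-1.12), as F68/PG/PEG400 minus water.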

How the results depend on the processing

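For 304 named or called genes the direction and adjusted p of heart minus the mean of kidney and liver were recomputed, in 19145 combinations of gene and setting. Both were kept in 19111, and 13 genes changed in the others. The difference reversed after joint quantile normalization and, where a second value is given, after median centring for Acadm (0.18, 0.20), Hand1 (0.057, 0.052), Ndufa3 (0.43, 0.34), Pdk2 (0.67, 0.35), Tbx3 (0.18, 0.17), Tfam (0.30, 0.045) and Atp2a2 (0.12). It reversed with the beta-actin 3′ minus 5′ difference as covariate for Ppargc1a (-0.078) and Ndufa3 (0.0026), at 1 h with F68/PG/PEG400 for Ndufa3 (0.013) and Pdk2 (0.17), and at 6 h with it for Acadm (0.0080) and Tbx3 (0.040). None of these 8 genes was heart-high or heart-low. Others kept their sign but lost the adjusted p under 0.05. With the actin covariate these were Adgre1 (-0.98), Heyl (0.27) and Ldha (0.22), the last also at 6 h with F68/PG/PEG400 (0.20). Rcan1 lost it after joint normalization (-0.17) and at 1 h with water (-0.26), and Sln at 1 h with F68/PG/PEG400 (0.29). The call itself was checked after joint normalization, when 27 of 107 heart-low list genes lost it. Of the 10 genes named for time, 9 kept their call without any 1 array and Noct lost it without heart 1 h F68/PG/PEG400 replicate 2 or 3, 1 h water 3 or 4, 6 h F68/PG/PEG400 3 or 4, or 6 h water 1 or 4. Of the 10 named for oral vehicle 4 kept it without any 1 array, while Ccdc85c, Ch25h, Cxcl10, Dlgap1, Hltf and Rimbp2 lost it in 3, 8, 33, 34, 34 and 31 of 48 omissions. In the 24 h arrays Dlgap1 (-0.28), Rimbp2 (-0.011), Ccl2 (0.32), Angptl4 (0.30) and Cxcl10 (0.59) reversed. Counts moved more, and the cause was not tested. After joint quantile normalization 10416 probe sets were higher and 10068 lower, 2365 heart-high and 1678 heart-low, 1305 smaller at 6 h and 167 smaller with F68/PG/PEG400. After median centring 9613 were higher, 2116 heart-high and 1802 heart-low, with 1137 larger and 4109 smaller at 6 h. Larger at 6 h were 3319 with no filter and 978 with a filter at 7. With 1 probe set per gene, which tests fewer features, 3076 were higher, 8277 lower, 683 heart-high, 1778 heart-low, 796 larger at 6 h, and 52 larger and 61 smaller with F68/PG/PEG400. At 2 log2 units 593 were heart-high and 894 heart-low. With the actin covariate 1125 and 1672 were larger and smaller at 6 h, and 39 and 49 with F68/PG/PEG400. The covariate was 0.20 to 0.53 for heart, 0.43 to 0.60 for kidney and 0.73 to 0.91 for liver. Without the 6 hearts high in Alb, chosen after seeing the data, these were 222 and 258, and 14 and 43. Array weights gave 271 and 241 for the oral vehicle, and the 24 h arrays 957 and 1036.

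The labels share replicate numbers only through a position code, taken as the rat in a replicate block. That block gave 225 and 230 probe sets for the oral vehicle and 1966 and 3008 for time, and of the 20 genes named for either only Hltf lost its call (adjusted p = 0.0513). Same-coded arrays of different tissues correlated in their deviations at 0.047 to 0.322, 45 of 48 pairs above 0.1, and 47 of 48 arrays matched their own code best. The study took its tissues from each rat, but that the code marks the rat is only a hint from the data.

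Leaving out 1 array in turn gave 48 to 216 larger and 60 to 234 smaller for the oral vehicle. The arrays that moved either count by over 1.5 times were heart 1 h F68/PG/PEG400 replicates 2 (48 and 60), 3 (210 and 177) and 4 (59 and 61), heart 1 h water replicate 3 (63 and 62), heart 6 h F68/PG/PEG400 replicate 4 (67 and 67), heart 6 h water replicates 1 (80 larger), 2 (207 larger), 3 (64 and 63) and 4 (68 and 66), and kidney 6 h F68/PG/PEG400 replicate 2 (216 and 234). The other counts stayed within 1.5 times, at 1283 to 1298 heart-high, 2952 to 2979 heart-low by log2, 1462 to 2013 larger and 2068 to 2792 smaller at 6 h.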

Other observations

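Fam111a, a gene linked to DNA replication, had the largest spread between hearts of 1 group among genes that passed the filter, with an SD of 2.33 log2 units, ahead of Alb at 1.99, Rup2 at 1.30, Sv2b (a synaptic vesicle protein) at 1.07 and Ccl2 at 1.04. Myl7, which the filter left out, had an SD of 1.97. The values of Fam111a fell into separate clusters in every tissue. On the 6 position codes with heart values of 10.8 to 12.0, kidney was at 10.5 to 11.8 and liver at 10.3 to 11.5. On the other 10 codes heart was at 6.06 to 7.49, kidney at 6.22 to 6.86 and liver at 5.05 to 7.10. Sv2b was similar, with 3 codes at 9.45 to 10.2 (heart), 10.0 to 10.5 (kidney) and 7.60 to 8.31 (liver), and 13 codes at 12.0 to 12.5, 11.8 to 12.2 and 9.97 to 10.5. Cd3g (a T cell receptor subunit), Cryl1 (a lens crystallin relative), S100a9 (a neutrophil protein), Nap1l5 and Slpi (a protease inhibitor) followed, with SDs of 0.92, 0.90, 0.88, 0.88 and 0.86.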
